A study of Triticum turgidum subsp. durum with 20 samples.

Results

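The late-rise genes of the durum wheat apex were the high-confidence gene models whose transcript level was higher when the terminal spikelet formed than at 3 earlier stages. A gene model belonged to them when its mean at stage W3.5 was at least 2 CPM and at least 2 times each of its means at W1, W2 and W3.0. CPM (counts scaled to library size) is the number of reads on a gene model per 1000000 reads counted in that library. This rule found 117 members among 73680 high-confidence gene models, which is 0.159% of them, and among 190381 gene models in all. Of the 31162 high-confidence models that reached 2 CPM at any stage, members made up 0.375%. The levels at W1, W2, W3.0 and W3.5 chose the members, so differences between W3.5 and the earlier 3 stages are described without a test. Stage W3.25 did not enter the rule.

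Apices came from the tetraploid cultivar Kronos (Triticum turgidum subsp. durum, genomes A and B), which carries a spring VRN-A1 allele with a deletion in an intron and the Ppd-A1a allele of reduced photoperiod sensitivity. All plants grew under long days in a chamber, so genotype and treatment were the same in every group, and the groups differed in Waddington stage and with it in the number of apices pooled. The 5 groups were W1 (vegetative meristem), W2, W3.0, W3.25 (lemma primordium) and W3.5 (terminal spikelet), with 4 libraries each, 20 in all. W2 is called double ridge in one place and early double ridge in another, and W3.0 glume primordium or double ridge, so the Waddington numbers are used here. A library pooled about 20 apices at the early stages (W1, W2) and about 12 from W3.0 on, so the spread between libraries is a spread between pools and not between plants.

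In a wheat spike the apex first makes spikelet meristems along its flanks, and each of these then makes glumes, lemmas and florets. The apex itself ends in a terminal spikelet. Floret identity is set by MADS-box transcription factors, proteins that bind DNA in combinations. The B class among them, which includes PISTILLATA (PI), is known from Arabidopsis for the identity of petals and stamens, and its relatives in grasses for that of lodicules and stamens. Wheat has several of these genes as a copy on the A genome and a copy on the B genome.

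The libraries held 22229388 to 29655553 counted reads, so that 1 CPM stood for 22.2 to 29.7 reads. Members had a median of 75 reads over the 4 W1 libraries, 90 reads at W2, 167 reads at W3.0, 410 reads at W3.25 and 652 reads at W3.5. At W1 30 of the 117 members had fewer than 10 reads in every library, whereas at W3.5 all 117 had at least 10 in every library. The scaling factors of edgeR (TMM) were higher at W3.5 than at W1 by 0.20 on the log2 scale and higher at W3.5 than at W3.0 by 0.051, so a CPM ratio stands above the TMM-scaled ratio by these amounts. The fold changes below carry the TMM scaling. With TMM-scaled CPM in the rule, 101 gene models met it, all of them among the 117. Those that no longer met it included MADS32-B1, TraesCS5B02G133700 and TraesCS4A02G406200, with ratios of 1.99, 1.93 and 1.87. Replicate libraries differed by more than sampling noise in every pair (chi-square per gene 2.14 to 11.6, where counting alone gives about 1). The pairs with W1 replicate 1 gave 10.04 to 11.6 and all other pairs 2.14 to 4.33, so this library stood apart from the other W1 libraries. No library was counted as a repeat of another.

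The tissue was checked with marker genes. The summed level of 6 apex and inflorescence genes (LFY, AP1-A3, AP1-B1, 2 CLV3 copies and a WUS copy) ranged over the libraries from 11.3 to 15.5 CPM at W1, 83.0 to 111 CPM at W2, 223 to 240 CPM at W3.0, 237 to 255 CPM at W3.25 and 230 to 248 CPM at W3.5. The summed level of 2 photosystem I genes, which mark green tissue, was 12.2 to 21.2 CPM at W1, 42.6 to 52.9 CPM at W2, 36.3 to 39.1 CPM at W3.0, 37.3 to 43.9 CPM at W3.25 and 34.1 to 41.8 CPM at W3.5. No marker stood at 0 counts over a stage. At W3.5 both sums overlapped their range at W3.0. The apex sum was mostly LFY and the AP1 genes. Its stem-cell markers had lower means at W3.5 than at W3.0, their highest stage. The CLV3 copies TraesCS2A02G329300 and TraesCS2B02G353000 averaged 0.691 and 0.313 CPM at W3.5, against 1.76 and 0.491 CPM at W3.0, 0.392 and 0.309 CPM at W2 and 0.166 and 0.303 CPM at W1. Neither passed an adjusted p of 0.01 at W3.25 against W3.0 (edgeR adjusted p = 0.743 and 0.554) or at W3.5 against W3.25 (edgeR adjusted p = 0.0373 and 0.991). TtWUSb (TraesCS2B02G775400LC) averaged 0.0825 CPM at W3.5, against 0.329 CPM at W3.0, 0.134 CPM at W2 and 0.0095 CPM at W1, and was not tested. The part of these markers in the late rise was not tested. Anther markers could not be looked up, because 0 of the identifiers matched the 63993 rows of the gene table at hand. In pooled tissue, fewer cells of a type and less RNA per cell cannot be told apart.

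Over the 117 members, the median of the stage means was 0.685 CPM at W1, 0.913 CPM at W2, 1.67 CPM at W3.0, 3.97 CPM at W3.25 and 6.34 CPM at W3.5. At W3.5 the members lay between 2.01 and 366 CPM, with quartiles of 3.60 and 18.4 CPM, and 46 of them were above 10 CPM and 3 above 100 CPM. At W1 17 members were below 0.1 CPM and 69 below 1 CPM. The ratio of the W3.5 mean to the highest of the 3 early means had a median of 2.78 with quartiles of 2.33 and 3.96. It lay between 2 and 3 for 67 members, between 3 and 5 for 27, between 5 and 10 for 8, and at 10 or more for 15. The highest early mean was that of W3.0 for 90 members, of W1 for 20 and of W2 for 7. Most members thus lay near the lower limit of the rule, and a few far above it. The 5 members nearest the limit had ratios of 2.0 to 2.03, and the 5 gene models just short of it had 1.97 to 1.995. On the level axis, the 5 lowest members had 2.01 to 2.14 CPM at W3.5, and the 5 highest gene models under the limit had 1.87 to 1.98 CPM.

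In 114 of 117 members each W3.5 library was above each W1, W2 and W3.0 library, a separation that the rule itself favours. Neighbouring stages overlapped more often, as given for each step below. In 84 members every W3.25 library was also above every W1, W2 and W3.0 library, against 2.0% of all 48336 gene models tested. The 5 stage means stood in rising order in 59 members, against 15.1% of all gene models tested, an order that the rule fixes in part. Nothing is read from these shares, since the early levels and the W3.5 level chose the members. The spread within a stage narrowed as levels grew: the median coefficient of variation over 4 libraries was 26.4% for W1, 29.2% for W2 and 26.2% for W3.0, against 16.2% for W3.25 and 13.5% for W3.5.

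The study's sources named 4 members, and 3 of these were MADS-box genes. PI-A1 (TraesCS1A02G264300, RefSeq v1.0 chromosome 1A, 459946840 to 459948904), a B-class floral organ identity gene, had 3.66, 3.95, 4.49 and 4.22 CPM in the W1 libraries and 4.66, 4.86, 4.36 and 3.86 CPM at W2. It had 5.66, 5.36, 5.05 and 5.86 CPM at W3.0, 9.05, 12.5, 11.95 and 10.99 CPM at W3.25, and 25.9, 27.7, 29.7 and 21.9 CPM at W3.5. The W3.25 libraries all stood above the W3.0 libraries and the W3.5 libraries all above those of W3.25, while W1 and W2 overlapped. PI-A1 was called higher at W3.25 than at W3.0, by 1.01 ± 0.11 on the log2 scale (SE, edgeR adjusted p = 2.19e-06), and higher at W3.5 than at W3.25 by 1.21 ± 0.095 (edgeR adjusted p = 2.14e-08). It was called in neither W2 against W1 (adjusted p = 0.904 in edgeR) nor W3.0 against W2 (adjusted p = 0.117 in edgeR).

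A PI-like gene on chromosome 1B (TraesCS1B02G275000, 482450864 to 482455256) followed the same order of stages with fewer reads. It had 2.41, 2.81, 2.82 and 2.31 CPM at W1, 3.40, 3.46, 2.92 and 3.62 CPM at W2, and 3.97, 3.75, 3.44 and 4.27 CPM at W3.0. At W3.25 it had 5.88, 7.35, 6.81 and 5.92 CPM, and at W3.5 12.6, 14.3, 14.5 and 11.8 CPM. Again no W3.25 library overlapped W3.0 and no W3.5 library overlapped W3.25. The gene was called higher at W3.25 than at W3.0 by 0.73 ± 0.11 (log2, SE, edgeR adjusted p = 0.000244) and higher at W3.5 than at W3.25 by 1.003 ± 0.099 (log2, SE, edgeR adjusted p = 9.27e-07). Levels of different genes need scaling by length, and the length at hand was that of the gene span, introns included, so transcript levels of these genes could not be compared. Per length of span (TPM), PI-A1 stood at 33.2 ± 4.3 TPM at W3.5 and the PI-like gene at 7.89 ± 0.81 TPM (SD, n = 4 each), a gap that the longer span of the PI-like gene widens. The span of the PI-like gene overlaps 2 other gene models and reads over several models were not counted, so its level is uncertain.

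MADS32-B1 (TraesCS3B02G318300, chromosome 3B, 513254002 to 513256449) belongs to a group of MADS-box genes known from rice for floret development. It had 4.99, 3.84, 5.85 and 4.56 CPM at W1 and 4.82, 5.99, 8.55 and 5.33 CPM at W2. It then had 23.96, 20.7, 17.6 and 14.2 CPM at W3.0, 28.2, 32.5, 29.4 and 32.0 CPM at W3.25, and 40.7, 41.1, 38.4 and 37.6 CPM at W3.5. In contrast to the PI genes, its largest step was that between W2 and W3.0, where it was called higher at W3.0 by 1.59 ± 0.14 (log2, SE, edgeR adjusted p = 2.33e-09). It was called higher at W3.25 than at W3.0 by 0.66 ± 0.12 (edgeR adjusted p = 0.00295), a call that was lost without W3.0 replicate 3 or 4 or without W3.25 replicate 2 or 4. Between W3.5 and W3.25 the libraries did not overlap, but the gene was not called, at 0.34 ± 0.12 (edgeR adjusted p = 0.168). It was called there with only the 2 stages in the fit. Its W3.5 mean was 2.06 times its W3.0 mean, just inside the rule, and outside it with TMM scaling.

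The copy of this gene on the A genome, MADS32-A1 (TraesCS3A02G284400), was not a member. It averaged 14.8 CPM at W1, 25.9 CPM at W2, 91.6 CPM at W3.0, 121 CPM at W3.25 and 130 CPM at W3.5, so it had most of its level by W3.0. Per length of span, MADS32-B1 stood at 42.0 ± 1.6 TPM at W3.5 and MADS32-A1 at 167 ± 9.97 TPM (SD, n = 4 each), with introns again in the length.

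The fourth named member was a gene of the B3 family of transcription factors (TraesCS4A02G055500, chromosome 4A, 46282730 to 46284222), named for the plant B3 DNA-binding domain. It had 0.28, 0.19, 0.36 and 0.61 CPM at W1 and 1.58, 1.32, 3.15 and 1.95 CPM at W2. At W3.0 it had 5.20, 5.21, 2.35 and 3.97 CPM, at W3.25 11.01, 12.5, 11.01 and 11.4 CPM, and at W3.5 15.6, 13.4, 14.6 and 12.2 CPM. The gene stood higher at each stage than at the one before, but W3.0 replicate 3 was inside the W2 range and W3.5 replicate 4 inside the W3.25 range. It was called higher at W2 than at W1, at W3.0 than at W2 and at W3.25 than at W3.0 (the last by 1.44 ± 0.18 on the log2 scale, edgeR adjusted p = 2.47e-05), and not at W3.5 against W3.25, where the difference was 0.25 ± 0.16 (edgeR adjusted p = 0.595). The call at W3.0 against W2 was lost without W2 replicate 1 or W3.0 replicate 1 or 2.

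**Figure D1:**
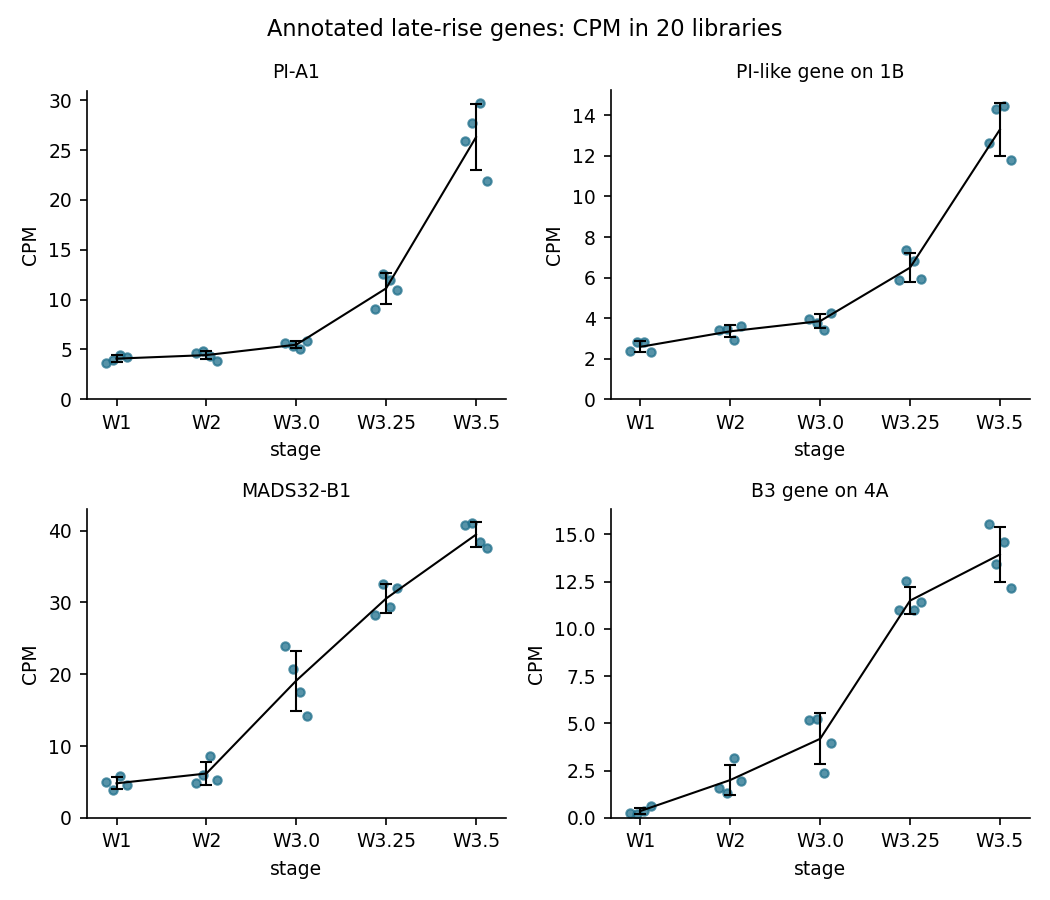
CPM (vertical axes, linear from 0) of the 4 named late-rise genes by Waddington stage. Points are the 4 libraries of a stage and the black line joins stage means with SD bars; PI-A1 and the PI-like gene have their widest step at W3.5, whereas MADS32-B1 already stood at 14.2 to 23.96 CPM at W3.0 and the B3 gene at 11.01 to 12.5 CPM at W3.25.

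The sources named 66 gene models by identifier, among them transcription factors of a regulatory network of the inflorescence. Of these 66, 65 were tested. Of the 7 MADS-box genes among them, 3 were members. The study also places other MADS-box groups, such as AGL6 and SEP3, in a set of co-expressed genes that peaks at the terminal spikelet. None of these was among the 7, so the unnamed members may hold further MADS-box genes. At W3.25 against W3.0, 3 of the 7 were called higher (the 3 members) and 1 lower (SVP-B2), and at W3.5 against W3.25 2 were called higher (the PI genes) and 1 lower (SVP-B2). The other network transcription factors named by identifier, 52 in number, included 1 member, the B3 gene. Of these 52, 3 were called higher and 9 lower at W3.25 than at W3.0, and 0 higher and 10 lower at W3.5 than at W3.25 (1 higher in DESeq2 alone, 0 in edgeR alone, and 6 at an unadjusted edgeR p under 0.05). Their median log2 fold change was -0.063 at the earlier and -0.099 at the later of these steps, against -0.00081 and 0.00070 over all gene models tested. The network genes were picked by the study on these samples, so their directions are not independent evidence. The other 2 network genes called higher at W3.25 than at W3.0 were no members: a YABBY gene (TraesCS2A02G386200), of a family known for the polarity of lateral organs, averaged 55.0 CPM at W3.25, against 38.0 CPM at W3.0, and a TCP gene (TraesCS2B02G392900) 6.55 CPM at W3.25, against 4.02 CPM at W3.0.

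The other 113 members carry no name in the sources used here and are given by identifier where values single them out. The member with the highest CPM at W3.5, TraesCS6B02G345100 (chromosome 6B, 608113965 to 608114769), had 1.29, 1.48, 2.31 and 2.01 CPM at W1, 14.6, 12.8, 33.1 and 25.95 CPM at W2 and 192, 161, 129 and 113 CPM at W3.0. At W3.25 it had 199, 268, 228 and 256 CPM, and at W3.5 374, 385, 388 and 317 CPM. No 2 neighbouring stages overlapped, although W3.25 replicate 1 stood only just above W3.0 replicate 1. The gene was called higher at W2 than at W1 by 3.5 ± 0.29 and at W3.0 than at W2 by 2.75 ± 0.20 (log2, SE, edgeR adjusted p = 5.64e-10 and 3.44e-11). It was called at neither late step, with 0.66 ± 0.18 at W3.25 against W3.0 (edgeR adjusted p = 0.0488) and 0.59 ± 0.17 at W3.5 against W3.25 (edgeR adjusted p = 0.0821). With only the 2 stages in the fit it was called at W3.5 against W3.25.

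TraesCS4A02G377300 (chromosome 4A, 652184300 to 652187898) came next by CPM. It had 2.02, 1.94, 1.19 and 1.87 CPM at W1, 7.58, 9.53, 18.8 and 17.3 CPM at W2, 116, 108, 83.7 and 77.6 CPM at W3.0, 161, 199, 194 and 197 CPM at W3.25 and 264, 268, 283 and 256 CPM at W3.5. Its stages did not overlap either, and W3.25 replicate 1 was the lowest of its stage. It was called higher at W3.25 than at W3.0 by 0.94 ± 0.15 (log2, SE, edgeR adjusted p = 0.000506), a call lost when any of 5 libraries was left out (W3.0 replicates 3 and 4 and W3.25 replicates 2, 3 and 4). On the log2 scale both genes had larger steps between W1 and W3.0 than after it, whereas in CPM more of their gain came after W3.0.

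In 4 members fewer than 10 reads were counted over the libraries of each of W1, W2 and W3.0, and the 2 with the largest ratios are given in full. TraesCS5B02G286100 (chromosome 5B, 471852224 to 471860110) had 4 reads over the W1 libraries, 1 at W2 and 1 at W3.0, then 538 at W3.25 and 1564 at W3.5. In CPM these were 3.28, 6.35, 5.96 and 5.16 at W3.25 and 15.3, 14.3, 17.6 and 13.1 at W3.5. Its W3.5 to W1 ratio was 416, with an exact 95% counting interval of 162 to 1530. TraesCS1B02G144800 (chromosome 1B, 198145270 to 198154010) had 0 reads at W1 and 1 read each at W2 and W3.0, then 97 at W3.25 and 351 at W3.5, where its libraries had 2.95, 3.77, 3.61 and 3.28 CPM. Its ratio of W3.5 to W2 was 332 on a single W2 read, with a counting interval of 59.1 to 13133. Both were called higher at W3.25 than at W3.0 (edgeR adjusted p = 3.99e-12 and 2.95e-06), with no fold given because the W3.0 side rests on 1 read each. Both were also called higher at W3.5 than at W3.25, by 1.51 ± 0.15 and 1.84 ± 0.25 on the log2 scale (edgeR adjusted p = 1.25e-06 and 0.000134). The others were TraesCS7B02G158600, with 363 reads at W3.25 and 1391 at W3.5, and TraesCS5B02G189700, with 76 and 606 reads.

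At the other end, TraesCS5B02G133700 (chromosome 5B, 250233025 to 250236102) was expressed throughout and lay just inside the rule with a ratio of 2.0. It had 14.9 to 15.4 CPM at W1, 17.0 to 18.2 CPM at W2, 17.7 to 21.5 CPM at W3.0, 26.02 to 32.8 CPM at W3.25 and 35.3 to 43.7 CPM at W3.5. It had the smallest fold change among the members called at W3.25 against W3.0, at 0.61 ± 0.076 (log2, SE, edgeR adjusted p = 2.18e-05). At W3.5 against W3.25 it was not called, at 0.34 ± 0.073 (edgeR adjusted p = 0.0103), close to the threshold. It was called there in DESeq2, with only the 2 stages in the fit, and without any 1 of 5 libraries (W1 replicate 1, W3.0 replicates 2 and 4, W3.25 replicate 3 and W3.5 replicate 4).

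For the early course of the members, from W1 to W3.0, the rule set an upper limit on each mean but no order among the 3. The counts that follow are descriptions, and nothing is read from them against the shares of all gene models, since a gene high at W1 could hardly be a member. A gene was called between stages when it passed an adjusted p (Benjamini-Hochberg) of 0.01 with the same sign in both edgeR, by the quasi-likelihood test, and DESeq2, by the Wald test. All 117 members passed the filter on low counts, which their W3.5 level alone could secure. At W2 against W1 26 members were called higher (all gene models tested: 8.3%) and 14 lower (14.6%), with a median log2 fold change of 0.15. At W3.0 against W2 61 members were called higher (all: 7.64%) and 2 lower (11.6%), with a median of 1.05 and 101 of 117 above 0. The 2 called lower were TraesCS3A02G324100 and TraesCS4A02G406200, named because they were so few, and the call of TraesCS4A02G406200 was lost without any 1 of 6 libraries (W2 replicates 1, 2 and 3 and W3.0 replicates 2, 3 and 4). At W3.0 against W1 67 members were called higher (all: 19.3%) and 7 lower (24.7%), while 43 were not called, and the median was 1.07. With members at 0 reads in a stage set to a floor of 3 reads over that stage, the 3 medians were 0.15, 1.03 and 1.05.

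By this last comparison the members fell into 3 courses. The sorting sets how W3.0 stands to W1 in each, and the rule sets W3.5 above W3.0, so the shapes are descriptions. The 67 members called higher at W3.0 than at W1 had median levels of 0.364, 0.805, 2.06, 4.42 and 5.99 CPM at the 5 stages in their order, a climb of the median at each stage. Among these 67, 25 were called higher and 3 lower at W2 than at W1. The 43 members not called had medians of 1.01, 0.966, 1.18, 3.52 and 5.75 CPM, so that the median was about level up to W3.0 and higher after it. Single genes of this course were not all level, since 1 was called higher and 7 lower at W2 than at W1, and 9 higher and 1 lower at W3.0 than at W2. The 7 members called lower at W3.0 than at W1 had medians of 2.17, 0.899, 1.24, 7.78 and 13.1 CPM, a dip before the rise. Of the 67, 35 were called higher at W3.25 than at W3.0 and 22 at W3.5 than at W3.25 (all gene models tested: 0.474% and 0.288%). Of the 43 these were 21 and 18, and of the 7 they were 7 and 5. The 7 were sorted by a low W3.0 level, and the rule set their W3.5 mean at 2 or more times that at W1. Calls at W3.25 against W3.0 were thus favoured in them, and nothing is read from these counts. Whether the shares differ between the courses was not tested.

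**Figure D2:**
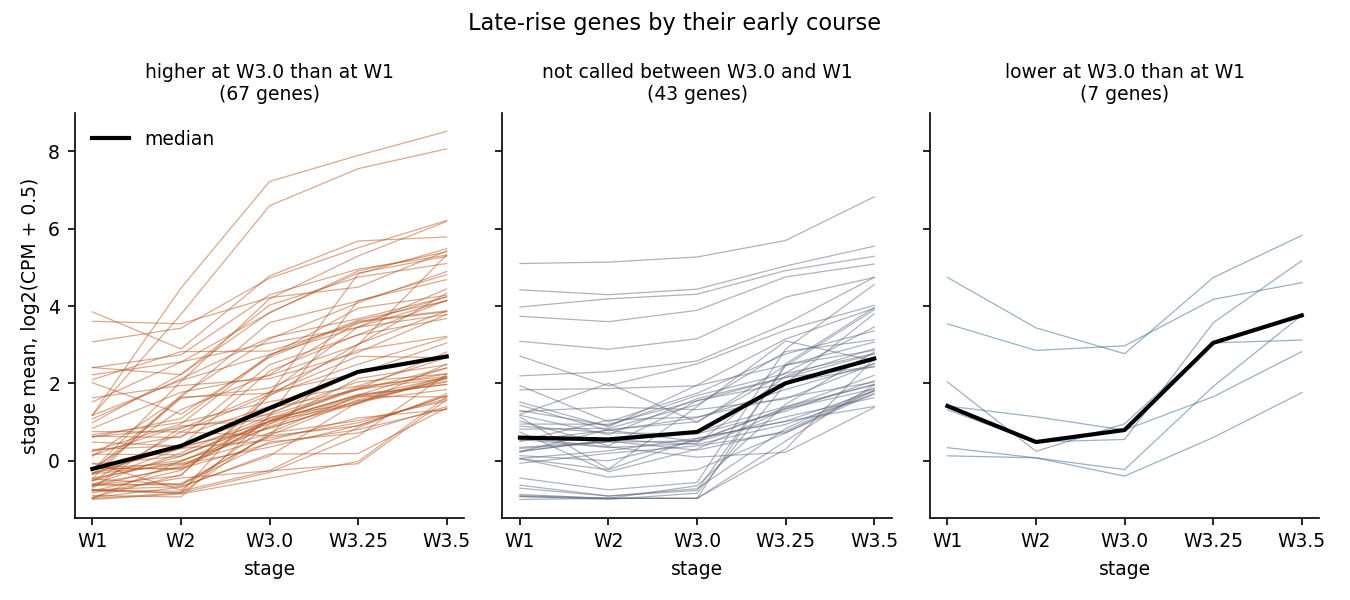
Stage means of the 117 late-rise genes as log2(CPM + 0.5) by Waddington stage, in panels for the 67 genes called higher at W3.0 than at W1, the 43 not called and the 7 called lower. Thin lines are genes and the thick line is their median, which climbs at each stage in the left panel, is level up to W3.0 in the middle panel and dips at W2 and W3.0 in the right panel. The sorting and the rule fix these shapes in part.

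Of the 7 genes with a dip, the pair with the highest W3.5 means was named after the values had been seen. TraesCS4A02G406200 (chromosome 4A, 679084499 to 679086808) had 29.6, 20.1, 29.8 and 25.5 CPM at W1, 12.6, 10.6, 9.63 and 8.50 CPM at W2 and 9.46, 6.70, 4.90 and 4.18 CPM at W3.0. It then had 20.0, 29.6, 26.9 and 28.1 CPM at W3.25 and 59.9, 62.5, 58.9 and 43.9 CPM at W3.5. The W3.25 libraries were back in the W1 range, and the W3.5 libraries stood above all others. It was called lower at W3.0 than at W1, by -2.21 ± 0.18 on the log2 scale, and higher at W3.25 than at W3.0 by 2.04 ± 0.18 (edgeR adjusted p = 8.22e-11 and 1.02e-07). It was called higher again at W3.5 than at W3.25 by 1.07 ± 0.15 (edgeR adjusted p = 0.000147).

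TraesCS1B02G477900 (chromosome 1B, 686682265 to 686684346) had 2.27, 1.86, 1.43 and 2.41 CPM at W1, 1.18, 0.86, 0.63 and 0.94 CPM at W2 and 1.099, 1.42, 0.67 and 0.67 CPM at W3.0. At W3.25 it had 8.98, 11.9, 14.2 and 10.3 CPM, and at W3.5 35.3, 36.3, 39.4 and 31.4 CPM. Both late stages stood clear of each other and of every earlier library. The gene was called lower at W3.0 than at W1 by -1.19 ± 0.24 (log2, SE, edgeR adjusted p = 0.000155), higher at W3.25 than at W3.0 by 3.53 ± 0.19 (edgeR adjusted p = 5.83e-12) and higher at W3.5 than at W3.25 by 1.61 ± 0.13 (edgeR adjusted p = 2.14e-08).

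By the rule, each member rose between W3.0 and W3.5, over the last 2 steps. The median log2 fold change of W3.0 against W2, 1.05, was larger than that of either. W3.0 was chosen low and W3.5 high, so both counts that follow are descriptions beside the share of all gene models. At W3.25 against W3.0 63 of the 117 members were called higher, against 0.474% of all gene models tested, and 0 lower (0.348%), with 0 members lower also in edgeR alone, in DESeq2 alone and at an unadjusted edgeR p under 0.05. The log2 fold change was above 0 in all 117, with a median of 0.91 and quartiles of 0.66 and 1.41. In 92 members every W3.25 library was above every W3.0 library (all: 4.69%). The 63 called had a median W3.5 level of 13.5 CPM and a median fold change of 1.24, and the 54 not called had 3.79 CPM and 0.62, with median SEs of 0.19 and 0.22. Of the 54 not called, 29 still had libraries that did not overlap.

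At W3.5 against W3.25 45 members were called higher, against 0.288% of all gene models tested, and 0 lower (0.414%), and again 0 lower in each tool alone and at an unadjusted edgeR p under 0.05. The log2 fold change was above 0 in 114, with a median of 0.68 and quartiles of 0.41 and 1.01, and in 90 members the libraries did not overlap (all: 6.17%). The count was 26 without W3.25 replicate 1, 26 without W3.5 replicate 3 and 29 without W3.5 replicate 2. Fitted with the 2 stages alone it was 72. Of the 139 gene models called higher at this step among all tested, 45 were thus members, and of the 229 called higher at W3.25 against W3.0, 63.

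Both steps were called in 28 members, the earlier one alone in 35, the later one alone in 17 and neither in 37. Over all gene models tested, 49 were called higher at both. The PI genes and TraesCS1B02G477900 were among the 28, MADS32-B1 and the B3 gene among the 35, and TraesCS6B02G345100 among the 37.

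**Figure D3:**
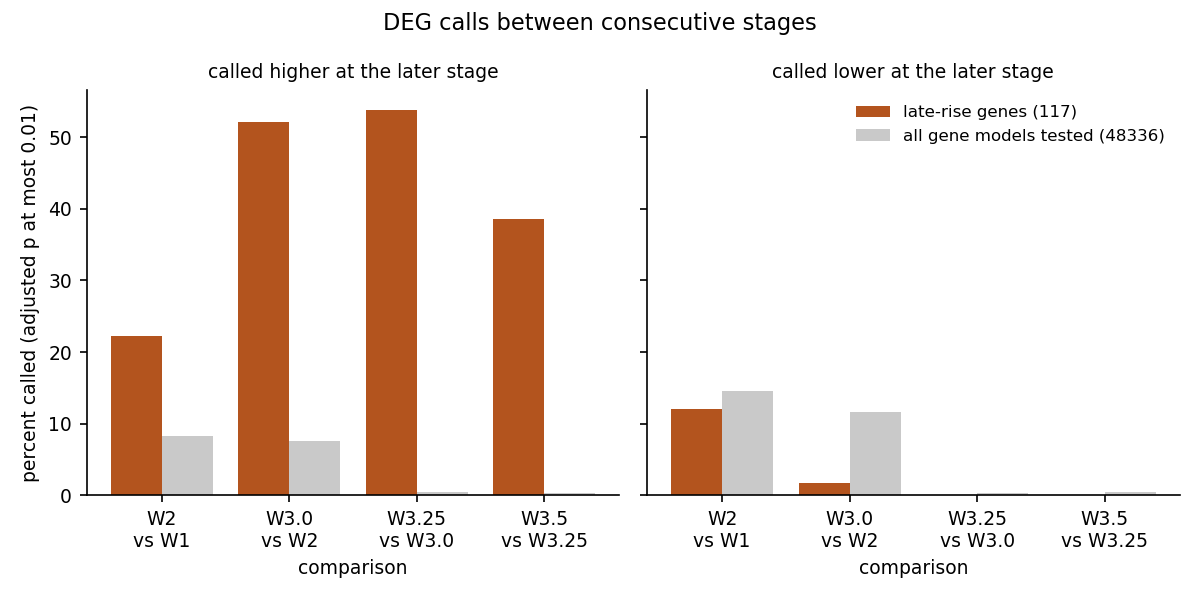
Percentage called higher (left) or lower (right) at the later stage in each comparison of consecutive stages, for the 117 late-rise genes (left bars) and the 48336 gene models tested (right bars). At W3.25 against W3.0, 53.8% of the late-rise genes were called higher, against 0.474% of all; the rule chose W3.0 low and W3.5 high, so the 2 right-hand comparisons are descriptions.

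Where W3.25 lay between its neighbours was measured as a position on the log2(CPM + 0.5) scale, with 0 at the W3.0 mean and 1 at the W3.5 mean. The median over the members was 0.565, with quartiles of 0.444 and 0.687. In 79 members W3.25 was at least midway (0.5 or above) and in 38 it was below. Both end points were used by the rule, so the position is a description. Taking each W3.25 library alone gave medians of 0.458, 0.654, 0.551 and 0.610 for replicates 1 to 4 (SD 0.085). This SD is a spread of single libraries, not the error of the median, and leaves out the spread of W3.0 and W3.5. With single libraries left out the median was 0.538 to 0.608. On linear CPM the median was 0.406, that is, more of the gain in reads came after W3.25. PI-A1 had a position of 0.444 and the PI-like gene 0.410, MADS32-B1 0.646 and the B3 gene 0.835.

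**Figure D4:**
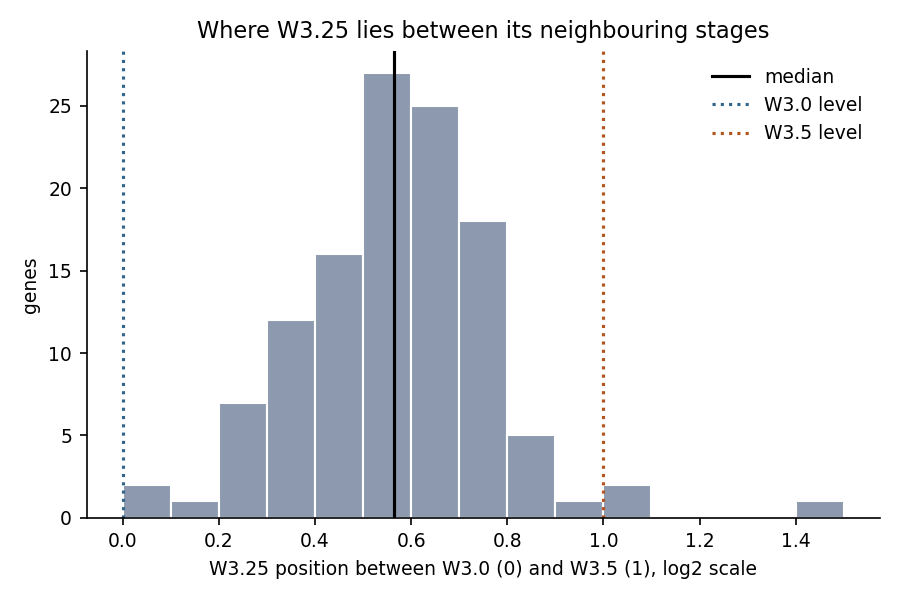
Number of late-rise genes (vertical axis) by the position of their W3.25 mean between the W3.0 mean (0, dotted) and the W3.5 mean (1, dotted) on the log2(CPM + 0.5) scale, in bins of 0.1. The solid line is the median, 0.565. Of the 117 genes 38 lie below 0.5 and 3 above 1. Both end points were used by the rule.

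In 3 members the W3.25 mean was above the W3.5 mean, and they are named for that reason. TraesCS2B02G516700 had 5.50 ± 2.79 CPM at W3.5 and 8.08 ± 3.71 CPM at W3.25, TraesCS6B02G267800 5.85 ± 1.96 and 6.01 ± 3.61 CPM, and TraesCS7B02G063700 2.64 ± 0.36 and 2.68 ± 0.29 CPM (SD, n = 4 each, the W3.5 value before that of W3.25). None was called between these stages (edgeR adjusted p = 0.532, 0.985 and 0.967), and in each the difference was smaller than the SD at W3.25. In a further pair, TraesCS4A02G406200 and TraesCS5A02G516600, the W3.25 mean had not passed the W1 mean.

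From W3.0 on, the members varied together between some libraries of a stage. Their summed level was 267 to 277 CPM in the W1 libraries, 269 to 335 CPM at W2, 603 to 884 CPM at W3.0, 1203 to 1527 CPM at W3.25 and 1981 to 2442 CPM at W3.5. From W3.0 on no library of a stage reached those of the next, an order that the rule itself favours. Within W3.0 the sums were 884, 791, 624 and 603 CPM for replicates 1 to 4. Replicate 1 exceeded replicate 3 in 93 of the 117 members, whereas it did so in 50.2% of all gene models tested. Within W3.25 replicate 1 was the lowest at 1203 CPM, and replicate 2 exceeded it in 92 members, against 42.5% of all gene models. Within W3.5 replicate 4 was the lowest at 1981 CPM, with replicate 2 above it in 105 members, against 51.2% of all. Such shifts were not limited to these pairs. Replicate 2 of W3.0 exceeded replicate 3 in 93 members (all: 53.1%), and replicate 4 of W3.25 exceeded replicate 1 in 100 (all: 51.7%). Replicate 3 of W3.5 exceeded replicate 4 in 100 (all: 50.3%). Some pairs showed no such shift. W3.0 replicate 3 exceeded replicate 4 in 45.3% of the members (all: 44.6%), and W3.25 replicate 3 exceeded replicate 4 in 47.0% (all: 45.2%). Between libraries of W1, 40.2% to 55.6% of the members were higher in one than in another (all: 42.7% to 57.1%). For W2 this was 41.0% to 56.4% (all: 47.3% to 52.6%). The W2 shifts were smaller than those above, with replicate 1 above replicate 3 in 41.0% of the members, against 52.6% of all. In what else the libraries of a stage differed was not tested.

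Much of the sum came from a pair of genes. TraesCS6B02G345100 and TraesCS4A02G377300 held 1.24% to 1.42% of it in the W1 libraries and 7.77% to 15.5% in those of W2. Their share was 31.7% to 34.9% for W3.0, 29.9% to 31.1% for W3.25 and 27.5% to 29.0% for W3.5. Without them the sum was 264 to 273 CPM at W1, 246 to 289 CPM at W2, 411 to 576 CPM at W3.0, 843 to 1060 CPM at W3.25 and 1407 to 1772 CPM at W3.5. The stages from W3.0 on stayed separate, as the rule favours, and W1 and W2 overlapped.

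**Figure D5:**
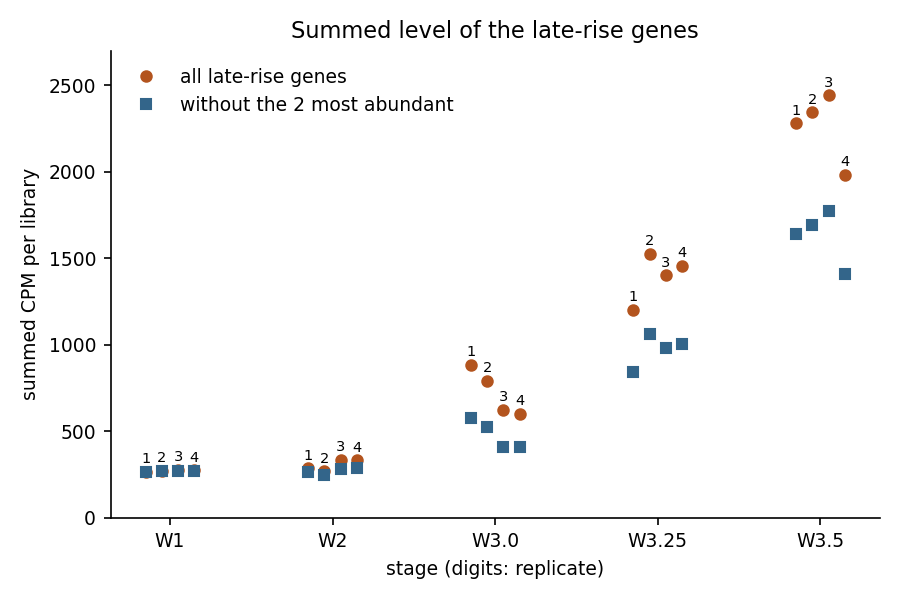
Summed CPM of the 117 late-rise genes (circles) and of the same genes without the 2 most abundant (squares) in each of the 20 libraries by Waddington stage, with replicate numbers above the circles. Sums of 267 to 335 CPM at W1 and W2 are followed by 603 to 884 CPM at W3.0, 1203 to 1527 CPM at W3.25 and 1981 to 2442 CPM at W3.5. The rule itself sets W3.5 above the W1, W2 and W3.0 levels.

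Position in the genome was not used by the rule. Members lay on every chromosome, from 2 on chromosome 6A to 11 each on 3A, 3B and 7B, with 52 on the A genome, 64 on the B genome and 1 on unanchored scaffolds. The A genome share was 44.8% (exact 95% interval 35.6% to 54.3%, counting error only), and 50.5% among high-confidence models of at least 2 CPM at a stage, a value inside that interval. Their gene spans had a median of 3250 bp, against 3890 bp for those models. In the outer 20% of the chromosome length at either end lay 56.0% of the members, against 51.2% of those models. The spans of 13 members overlapped another gene model, and for these, reads shared between models were lost to both.

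In 6 members, 5.13%, the next high-confidence gene model on a side was also a member, against 0.316% of all high-confidence models that had a member next to them. The latter share also covers models under 2 CPM at every stage, which could not be members. The 6 members formed 3 pairs, named after their positions had been seen. TraesCS4B02G245700 and TraesCS4B02G245800 lay on the same strand of chromosome 4B with 444929 bp between them. TraesCS4B02G245700 averaged 21.3 ± 1.0 CPM at W3.5, against 2.92 ± 0.76 CPM at W3.0, and its neighbour 8.60 ± 1.28 CPM at W3.5, against 2.77 ± 0.35 CPM at W3.0 (SD, n = 4 each). Both were called higher at each of the 3 steps from W2 on, but the call of TraesCS4B02G245800 at W3.5 against W3.25 was lost without W3.25 replicate 1 or 4 or W3.5 replicate 2 or 3.

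TraesCS7A02G383700 and TraesCS7A02G383800 lay on opposite strands of chromosome 7A, 441676 bp apart. TraesCS7A02G383800 had 19.3, 19.8, 22.5 and 17.3 CPM at W3.5, against 6.03, 8.88, 7.86 and 7.28 CPM at W3.25, and TraesCS7A02G383700 3.07, 3.20, 2.60 and 1.98 CPM at W3.5, against 1.32, 1.17, 1.46 and 1.52 CPM at W3.25. Both were called higher at W3.5 than at W3.25, by 1.36 ± 0.11 and 0.95 ± 0.19 on the log2 scale (edgeR adjusted p = 5.8e-08 and 0.00574). The call of TraesCS7A02G383700 was lost without any 1 of the W3.25 libraries or of W3.5 replicates 1, 2 and 3. The span of TraesCS7A02G383700 overlaps 2 other gene models.

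TraesCS5A02G034800 and TraesCS5A02G034900, on opposite strands of chromosome 5A, shared 333 bp of their spans. TraesCS5A02G034800 had 4.90, 3.49, 4.42 and 3.37 CPM at W3.5, against 1.65, 1.76, 1.05 and 1.63 CPM at W3.0. TraesCS5A02G034900 had 3.23, 3.40, 3.41 and 3.70 CPM at W3.5, against 2.45, 1.35, 1.27 and 1.05 CPM at W3.0. The W3.5 libraries were above the W3.0 libraries in both, as the rule favours. Reads were counted without regard to strand, so reads of a gene and of its antisense partner cannot be told apart, and reads that overlapped both models were dropped.

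Low-confidence gene models were left out by the rule, and 19 of them met the same thresholds. Their median levels were 0.260 CPM at W1, 0.595 CPM at W2, 1.37 CPM at W3.0, 2.30 CPM at W3.25 and 4.62 CPM at W3.5, with at most 15.7 CPM at W3.5, and their median W3.25 position was 0.520.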

How the data were processed

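Single reads of 100 bp from 20 libraries of pooled Kronos apices had been trimmed with Fastp, aligned with STAR 2.7.5 to the A, B and unanchored sequences of IWGSC RefSeq v1.0 and counted with featureCounts 2.0.0 by the authors. They deposited raw counts per gene model of annotation v1.1, over the whole gene span, without strand, at a mapping quality of at least 40, and without reads that overlapped several models. The 79047 gene models of the D genome, with 0 counts in all, were left out. CPM used the library totals. For tests, filterByExpr (minimum count 10, total 15) kept 48336 gene models, high- and low-confidence. A single fit over the 20 libraries, with stage as its factor, was made in edgeR 4.0.16 (TMM, quasi-likelihood) and DESeq2 1.42.0 (Wald), under R 4.3.3, two-sided. Fold changes, SEs and adjusted p-values are those of edgeR, adjusted over all gene models tested. TPM used the gene span as length, and figures were drawn with matplotlib 3.10.9. The pipeline was tested on simulated data. The members and gene lists were chosen with earlier results of these data known.

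Genes were named by rule: every member named in the study's sources, then at most 2 identifiers each for the highest W3.5 mean, the largest ratio (with at least 10 counts in every W3.5 library) and the largest and smallest W3.25 against W3.0 fold change among called members. Others were named after their values had been seen, as stated beside them. Lists by description (hormones, cell walls, photosynthesis, anther and pollen) gave no result, since no identifier matched the reference table. Reads carry no molecular identifiers, so intervals cover counting error only. The alternatives changed the scaling, the thresholds of the rule, the tool, the normalization, the filter, the adjusted p, a fold minimum, the stages in the fit, the replicate number as a block, the pseudocount and each library in turn.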

Additional observations from a re-analysis of the deposited data

Results flagged for a closer look

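Among 95 sets of 4 libraries (17 named genes and 2 summed measures at each stage), 5 held a value far from the other 3, and chance alone gives about 1 in 20. TraesCS4A02G377300 stood at 161 CPM in W3.25 replicate 1, below 194, 197 and 199 CPM in the other W3.25 libraries. The other 4 flags are single reads among libraries with 0 reads: TraesCS5B02G286100 had 0.0389 CPM in W2 replicate 2 and 0.0375 CPM in W3.0 replicate 2, and TraesCS1B02G144800 had 0.0405 CPM in W2 replicate 1 and 0.0374 CPM in W3.0 replicate 3.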

How the results depend on the processing

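No called fold change of the 17 named genes followed through the alternatives, in any of the 5 comparisons, changed sign. The number of members, 117, became 187 with a minimum of 1 CPM and 70 with 5 CPM, and 326 with a minimum ratio of 1.5 and 50 with 3. With TMM scaling, medians, separate libraries or low-confidence models it was 101 to 136, and 110 to 133 with single libraries left out. Members called at W3.5 against W3.25 were 29 with a 2-fold minimum and 72 with only those stages in the fit, and the W3.25 position was 0.406 on linear CPM. Neighbouring members numbered 12 of 187 at 1 CPM and 2 of 70 at 5 CPM.

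Leaving out single libraries gave 33 to 41 members called at W2 against W1, 54 to 64 at W3.0 against W2, 68 to 75 at W3.0 against W1, 47 to 65 at W3.25 against W3.0 and 26 to 50 at W3.5 against W3.25, and a W3.25 position of 0.538 to 0.608. With the replicate number as a block, 37, 61, 72, 61 and 37 members were called in these 5 comparisons, against 40, 63, 74, 63 and 45 without it. The numbers are not taken as pairs, since the deviations of same-numbered libraries correlated at -0.083 to 0.14, with 3 of 40 pairs above 0.1 and 5 of 20 libraries closest to their own number. The block ended 6 calls of these genes, those of TraesCS4A02G377300 and TraesCS5A02G034800 at W3.25 against W3.0, of TraesCS4B02G245700 and TraesCS7A02G383700 at W3.5 against W3.25, of TraesCS5A02G034800 at W2 against W1 and of the PI-like gene at W3.0 against W1.

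Depth limits the early levels: 1 CPM is 22.2 to 29.7 reads, and 30 members had fewer than 10 reads in every W1 library.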
